A study of Mus musculus with 4 samples.

Results

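The genes examined here flank *Jun* on mouse chromosome 4. A list of 41 genes within about 10 Mb of *Jun* was taken, without *Jun* itself, and every probe set whose only gene symbol in the platform annotation was a listed gene was kept. This gave 105 of the 45037 probe sets tested and covered 40 of the 41 genes, since *Raver2* had no such probe set. *Jun* encodes c-Jun, a subunit of the AP-1 transcription factor. Measurements came from hearts of 10 weeks old mice, 2 Junf/f and 2 Jun delta mu, with 1 Affymetrix mouse genome array per heart. Both groups carry *Jun* flanked by loxP sites and have a mixed 129/Ola-C57BL/6 background. Per the methods, littermates were used, and Jun delta mu mice in addition carry Cre recombinase driven by the muscle creatine kinase promoter, which acts in striated muscle and not in the other cell types of the heart. A growth protocol attached to the samples speaks of cells cultured from digested ventricles, and the sources do not explain it. Titles and descriptions speak of hearts, and the methods state that the array RNA came from hearts. The samples were taken as hearts here. The 8 cardiomyocyte markers had a mean log2 signal between 14.27 and 14.29 on every array. Digested ventricles hold cardiomyocytes too, so this value does not tell hearts from cultured cells.

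c-Jun pairs with Fos and ATF proteins, and such pairs bind short DNA elements in promoters and enhancers of genes for growth, stress responses and the extracellular matrix. In the heart AP-1 is known for its response to mechanical load. The neighbours of *Jun* have no shared pathway. They include the cell cycle inhibitors of the *Cdkn2a* and *Cdkn2b* locus, the angiopoietin receptor *Tek* of endothelial cells, a cluster of cytochrome P450 genes (*Cyp2j5*, *Cyp2j6*, *Cyp2j9*), the leptin receptor *Lepr*, the cytokine receptor kinase *Jak1* and the phosphodiesterase *Pde4b*, which degrades cyclic AMP. On GRCm38 the members run along chromosome 4 from 87769925, the start of *Mllt3*, to 104744844, the end of *Dab1*.

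*Jun* itself was low in Jun delta mu hearts by both of its probe sets. The brighter had a log2 signal of 8.30 and 8.999 on Junf/f replicates 1 and 2 and of 7.02 and 7.14 on Jun delta mu replicates 1 and 2. The other was at 7.78 and 8.15 against 6.58 and 6.86. The groups did not overlap for either. The differences of -1.57 and -1.24 (log2, Jun delta mu minus Junf/f, as everywhere below; standard errors 0.23 and 0.17) leave 33.8% and 42.3% of the Junf/f signal (limma, adjusted p = 0.896 for each). The study's threshold, used below, asks for a change above 1.3-fold, which is 0.38 on the log2 scale, and an unadjusted p under 0.05, here taken from limma. No probe set on the array reached an adjusted p under 0.05 (0 of 45037, the smallest was 0.237), whereas 2326 had an unadjusted p under 0.05 (5.16%). Adjusted the same way, the methods' t-test called no member either.

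The nearest transcript on the other side of the *Jun* promoter, *Junos*, is a long non-coding RNA that is no member of the list. It starts 95 bases from *Jun* and runs the opposite way, on chromosome 4 from 95052317 to 95169036 of GRCm38, while *Jun* runs from 95049036 to 95052222. Its probe set stood at a log2 signal of 5.30 and 5.45 on the Junf/f arrays and 5.80 and 5.94 on the Jun delta mu arrays. Both Jun delta mu hearts lay above both Junf/f hearts. The difference was 0.49 (standard error 0.11, limma, adjusted p = 0.896), or 5.38 ± 0.11 against 5.87 ± 0.10 (SD, n = 2). It passed the study's threshold on all 4 arrays and without any single array, between 0.42 and 0.57, and also by the methods' t-test. Of 68 probe sets of the 50 other named genes within 10 Mb of *Jun*, this was the 1 that passed, a share of 1.47% where 1.53% of all probe sets passed. Where in the transcript the probes lie, and whether they meet the deleted piece, was not examined. The shared start region is shown because *Jun* was lower, *Junos* was higher and both have a start within it. In all, *Junos* had 7 RefSeq promoter windows. The classical AP-1 element TGACTCA was found in windows at other starts of *Junos*, at chr4:95094777-95094806 and chr4:95147421-95147450. These are not shown. The region shown is the 300-base window at the start of *Jun*, GRCm38.p6 (RefSeq), minus strand, chr4:95052173-95052472. It holds 250 bases before and 50 after the start site. It has 194 bases in common with the window at the start of *Junos* that lies 95 bases from *Jun*. Capitals mark TGACATCA, a variant of the AP-1 and CRE type of element, in *Jun* reading direction.
Jun: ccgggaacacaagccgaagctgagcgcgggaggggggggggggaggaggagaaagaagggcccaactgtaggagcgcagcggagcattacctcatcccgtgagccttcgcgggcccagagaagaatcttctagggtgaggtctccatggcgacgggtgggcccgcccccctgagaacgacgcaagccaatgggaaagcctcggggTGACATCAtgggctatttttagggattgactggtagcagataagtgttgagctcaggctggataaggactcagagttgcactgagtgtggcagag

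The promoter windows of the members were searched for letters that AP-1 proteins are known to bind. RefSeq windows of 300 bases were at hand for 38 of the 41 listed genes, 57 windows in all. TGACTCA or its reverse complement TGAGTCA, the classical AP-1 element, was in 0 of the 57 windows and in 5.2% of all 32851 windows. TGACGTCA, the CRE element, which reads the same on both strands, was in 3 of 57 windows against 1.79%. TGACATCA or its reverse complement TGATGTCA was in 1 of 57 against 3.62%. The 4 stretches below (30 bases, GRCm38.p6, gene strand, motif in capitals) show the members with a match. They belong to *Cdkn2b* (minus strand, chr4:89311060-89311089), *Foxd3* (plus strand, chr4:99656055-99656084), *Jak1* (minus strand, chr4:101265306-101265335) and *Atg4c* (plus strand, chr4:99193684-99193713).
Cdkn2b: tatttgtctcaTGACGTCAccaagtgtggg
Foxd3: cacggcggcccTGACGTCAcgcgcggtcac
Jak1: ggagcagcttcTGACGTCAcgggggctggg
Atg4c: ttacatgtTGACATCAtttagtatatctct
The brightest probe sets of these 4 genes differed by -0.07, 0.04, 0.07 and -0.01, and none passed the threshold. The direction turned when 1 array was left out for *Cdkn2b* (-0.18 to 0.04), *Jak1* (-0.02 to 0.17) and *Atg4c* (-0.29 to 0.26).

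Among the members, 3 of 105 probe sets passed the study's threshold, where 1.53% of all probe sets passed. The member share was 2.86%. The 3 were a probe set of *Nfia*, which was higher (0.568% of all probe sets), and probe sets of *Mysm1* and *Itgb3bp*, which were lower (0.959%). None of the 105 passed by the methods' t-test (0.444% of all probe sets). By its brightest probe set, only *Mysm1* of 40 genes passed, as lower (of all genes, 1.45% passed, 0.665% as higher and 0.786% as lower). Counting a gene when any of its probe sets passed gave 3 of 40, where 2.58% of all genes did. All 3 calls were lost without Junf/f replicate 1, which left 0 of 105 (2.22% of all probe sets passed then), and the count was 11 without Junf/f replicate 2, when 7.66% of all probe sets passed. It was 1 without Jun delta mu replicate 2, with *Pde4b* (1.64% of all), and 2 without Jun delta mu replicate 1, with *Plaa* and *Lepr* (1.8% of all). Junf/f replicate 1 was the array least like the rest, with correlations of 0.9943 to 0.9946 over all probe sets, against 0.9968 to 0.9973 among the remaining 3. It was the highest or lowest of the 4 arrays for 68 of the 105 member probe sets (64.8%), and for 63.5% of all probe sets. Markers of other cells also differed. The 4 atrial markers were all above 0 (median 1.79), and none passed. Their mean log2 signal was 9.76 on Jun delta mu replicate 2, against 6.57 to 6.998 on the other arrays. Without that array their differences ran from -0.18 to 0.22. The 4 smooth muscle markers were all below 0 (median -0.49). Of these *Cnn1* passed at -0.67, and not without Junf/f replicate 1 (-0.42) or Jun delta mu replicate 1 (-0.45). Of 6 fibroblast markers 4 were above 0 and 2 below (median 0.12). Of these *Postn* passed at 1.15, and not without Junf/f replicate 2 (0.93). The part of these in the members' values was not tested.

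**Figure D1:**
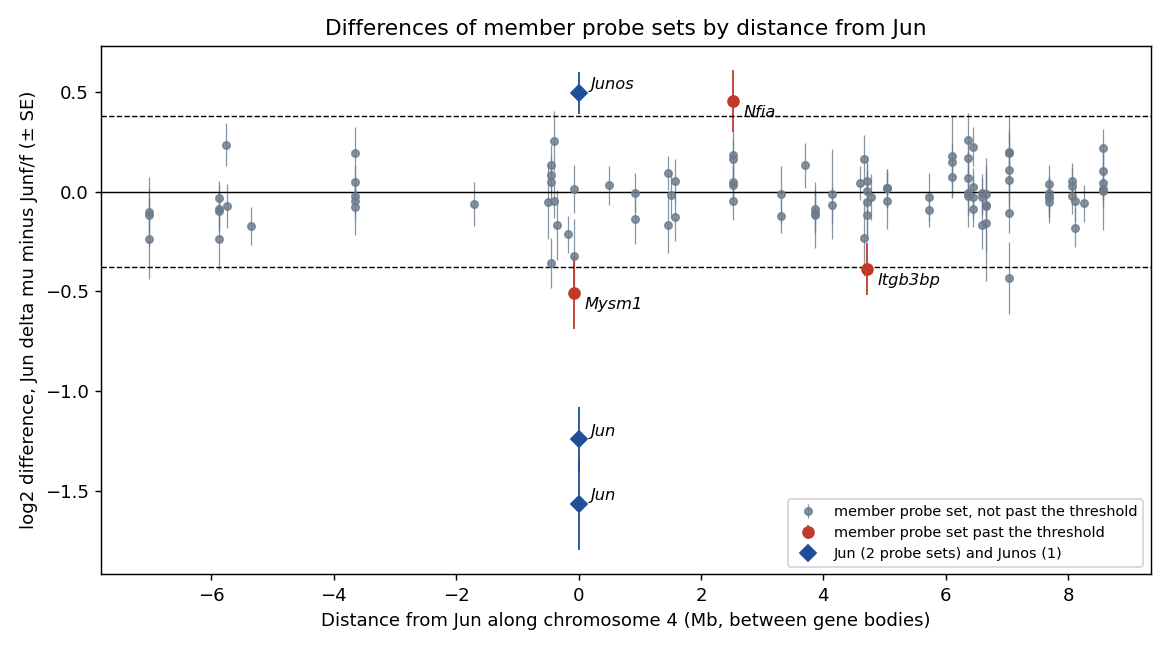
Difference in log2 RMA signal (Jun delta mu minus Junf/f, error bars ± standard error) of the 105 member probe sets against distance from Jun, with Jun and Junos as diamonds and dashed lines at 1.3-fold. Of the members, the probe sets of Mysm1, Nfia and Itgb3bp in red passed the threshold, and Jun at -1.57 and -1.24 lies far below every member.

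*Mysm1* encodes a deubiquitinase that acts on histone H2A and is best known from blood cell formation. It lies on chromosome 4 from 94942037 to 94979155 and is the member nearest to *Jun*, at 70 kb. The brightest of its 3 probe sets had a log2 signal of 6.14 and 5.61 on Junf/f replicates 1 and 2 and of 5.38 and 5.36 on the Jun delta mu arrays. The Junf/f hearts lay above the others, with replicate 1 far above replicate 2. The difference was -0.51 (standard error 0.18, 95% interval -0.97 to -0.05; limma, adjusted p = 0.896). It was -0.24 without Junf/f replicate 1, -0.51 without Jun delta mu replicate 1 and -0.50 without Jun delta mu replicate 2, none of which passed, and -0.78 without Junf/f replicate 2, which did. The second probe set was at 5.73 and 5.24 against 5.27 and 5.05. It moved the same way by -0.32, but its groups overlapped and it did not pass. The third was at 3.69 and 3.69 against 3.56 and 3.84, a difference of 0.01, at a signal far below the median of all probe sets (5.46). The gene thus passed by 1 of its 3 probe sets, and it did not pass as the median over them. Of 2 blood markers measured, *Alas2* passed as lower at -0.49 and *Hba-a1* differed by -0.01. The probe set of *Hba-a1* was at 3.49 and 3.59 against 3.47 and 3.59. That is far below the median of all probe sets, so its difference can show little of blood content. The call of *Alas2* was lost without Junf/f replicate 1 (-0.43), Junf/f replicate 2 (-0.56) or Jun delta mu replicate 2 (-0.22), and the part of blood in the value of *Mysm1* was not tested.

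*Nfia* is a transcription factor of the nuclear factor I family, on chromosome 4 from 97578066 to 98118876, with 6 probe sets. The one that passed was at 7.11 and 7.53 on the Junf/f arrays and 7.72 and 7.82 on the Jun delta mu arrays. Both Jun delta mu hearts were above both Junf/f hearts, and Junf/f replicate 1 was the lowest. The difference was 0.45 (standard error 0.16, limma, adjusted p = 0.896), and 0.25 without Junf/f replicate 1, 0.51 without Jun delta mu replicate 1 and 0.40 without Jun delta mu replicate 2, none of which passed. The brightest probe set of *Nfia*, at 10.08 and 10.10 against 10.09 and 10.16, differed by 0.04. Its 95% interval of -0.19 to 0.26 lay within 1.3-fold. Of the 6 probe sets, 5 were above 0 and the sixth was at -0.05, and the 5 that did not pass lay between -0.05 and 0.19. Taken as the median over its probe sets on each array, *Nfia* differed by 0.31 and did not pass. The 95% interval of the passing probe set, 0.07 to 0.84, still overlapped that of the brightest.

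*Itgb3bp*, on chromosome 4 from 99767406 to 99829215, encodes a centromere protein that also binds integrin beta 3 and nuclear receptors. Of its 5 probe sets, the one that passed was dim, at 4.22 and 3.89 on the Junf/f arrays and 3.70 and 3.64 on the Jun delta mu arrays. Its mean signal was at the 20.0th percentile of all probe sets. The difference was -0.39 (standard error 0.13, limma, adjusted p = 0.896), and -0.23 without Junf/f replicate 1, -0.42 without Jun delta mu replicate 1 and -0.36 without Jun delta mu replicate 2, none of which passed. The brightest probe set was at 6.05 and 5.91 against 5.93 and 6.04. The groups overlapped there, with a difference of 0.00 and a 95% interval of -0.25 to 0.25, within 1.3-fold. The other 3 were between -0.12 and 0.05.

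**Figure D2:**
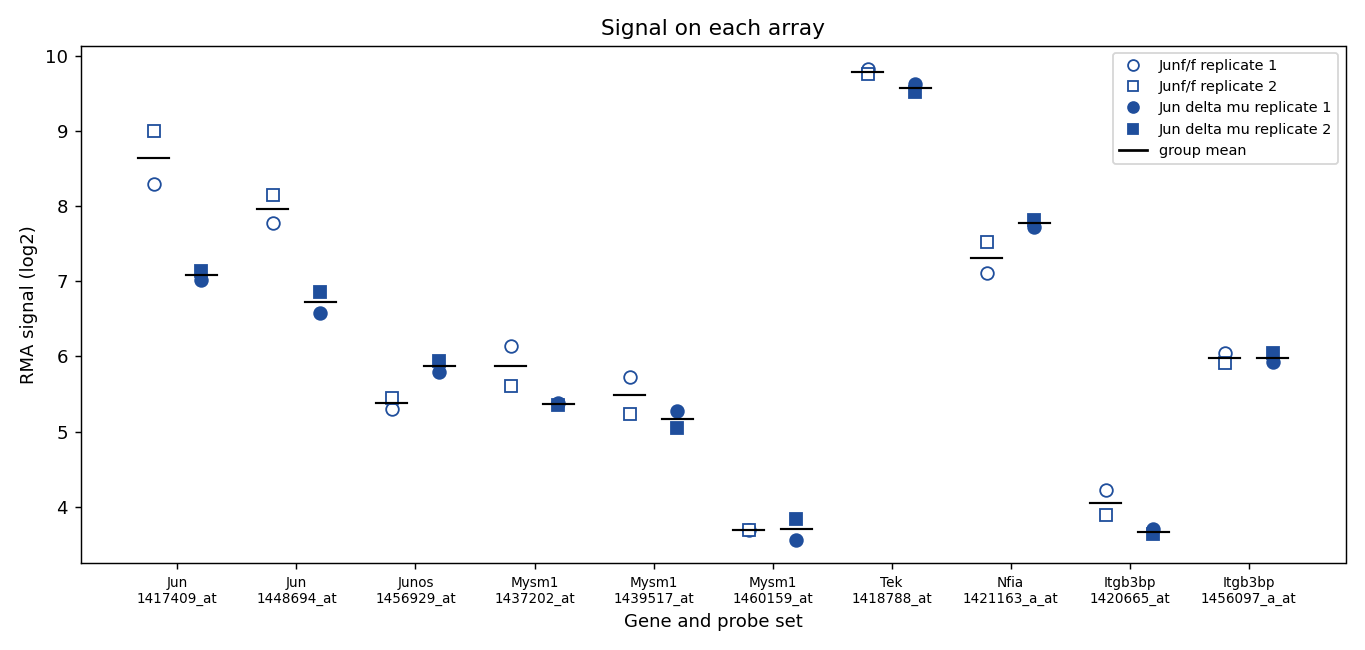
Log2 RMA signal of Jun, Junos and members near the threshold on each array (open symbols Junf/f, filled symbols Jun delta mu, circles replicate 1, squares replicate 2, lines group means). For the passing probe sets of Mysm1 and Itgb3bp, Junf/f replicate 1 is the highest array, and for that of Nfia it is the lowest; the brightest probe set of Itgb3bp, at the right, has overlapping groups.

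Probe sets of a gene often fell on both sides of 0. Of the 27 members with several probe sets, 12 had all of them on the same side of 0, 10 below and 2 above (44.4%), against 43.7% of all such genes. The 2 on the higher side were *Jak1*, with 3 probe sets between 0.07 and 0.18, and *Dab1*, with 5 between 0.00 and 0.22. Taken as the median over its probe sets on each array, *Dab1* instead differed by -0.08. On the lower side, *Mllt3* had 3 between -0.24 and -0.10, *Mtap* had 4 between -0.24 and -0.03 and *Usp1* had 3 between -0.12 and -0.09. No member had probe sets that differed by more than 1.3-fold in opposite directions. Probe sets of different brightness still gave different pictures of *Pde4b*. A dimmer one of its 6 was at 6.05 and 5.53 against 5.40 and 5.31, with both Jun delta mu hearts below, and its difference of -0.43 did not pass. With the replicate number as a block it did pass, and without Junf/f replicate 2, at -0.69, also. The brightest was at 8.11 and 8.03 against 8.54 and 7.98, where Jun delta mu replicate 1 alone was high. It differed by 0.19, by -0.09 without that array and by 0.47, past the threshold, without Jun delta mu replicate 2.

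Groups without overlap and small differences were found at the following shares. Of the 105 probe sets, 31 had groups that did not overlap (29.5%, against 33.9% of all), 16 higher (17.3% of all) and 15 lower (16.7% of all). By the brightest probe set it was 10 of 40 genes (25%, against 33.7% of all genes). The median difference of the member probe sets was -0.02, with quartiles of -0.09 and 0.05, and over all probe sets it was 0.00, with quartiles of -0.09 and 0.09. The median size of the difference, without sign, was 0.07 for members and 0.09 for all. By the brightest probe set, 25 of 40 genes were below 0 and 15 above, where 8688 of 18193 genes were below. The 95% interval of the difference lay wholly within 1.3-fold for 55 of the 105 probe sets (53.5% of all probe sets) and for 21 of 40 genes by the brightest (57.3% of all genes). Such an interval speaks for that probe set alone. *Nfia* and *Itgb3bp* are among the 21 genes, yet another probe set of each passed the threshold. For the other genes the interval of the brightest probe set reached past 1.3-fold, and a change of that size is not settled there. The number of arrays, 2 per group, limits the precision, and an exact permutation test of a single value could not go below p = 0.333 (two-sided).

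**Figure D3:**
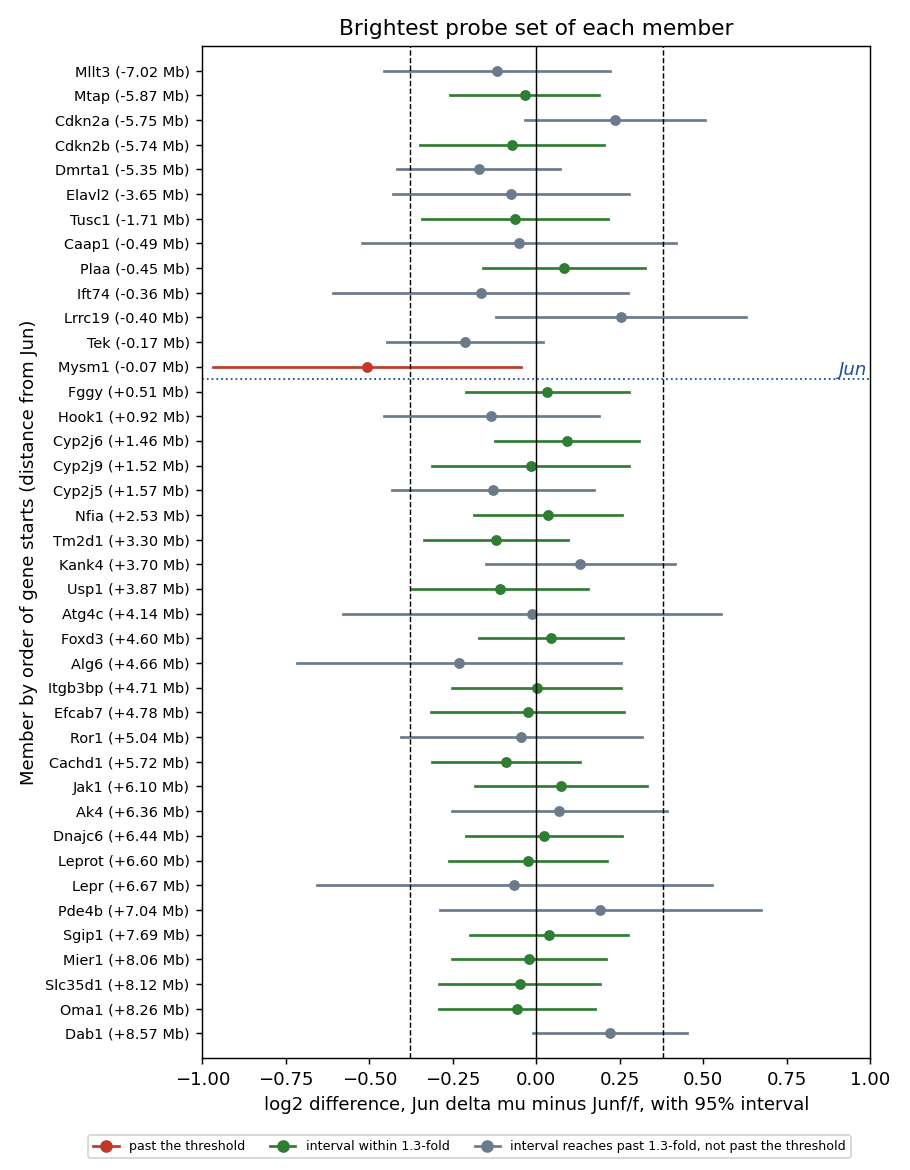
Difference in log2 RMA signal with its 95% interval for the brightest probe set of each of the 40 members, in order of gene starts along chromosome 4 (dotted line, position of Jun; dashed lines, 1.3-fold). The intervals of 21 genes, in green, lie within 1.3-fold, and that of Mysm1 next to Jun, in red, is the 1 that passed the threshold.

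Along the chromosome the counts and medians were as follows, as a description without a test. Of 12 members within 2.5 Mb, 1 passed by the brightest probe set, with a median difference of -0.06 and a median size of 0.11. Between 2.5 and 5 Mb none of 10 passed, with a median of -0.02 and a median size of 0.06. Between 5 and 10 Mb none of 18 passed, with a median of -0.03 and a median size of 0.07. On the rest of chromosome 4, 12 of 996 genes passed in the same way (1.2%, against 1.45% of all genes), with a median size of 0.08. Counted by probe set, 1 of 21, 2 of 28 and 0 of 56 passed in these steps of distance, and 26 of 1919 on the rest of the chromosome (1.35%, against 1.53% of all). The 13 members before *Jun* had a median of -0.07, 10 of them below 0, and the 27 after it a median of -0.02, 15 of them below 0. The members before *Jun* also had a wider spread between Junf/f hearts, with a median SD of 0.16 against 0.09 for those after it, and the part of that spread in the difference was not tested.

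The members on the near side before *Jun* form a tight cluster within 0.5 Mb. *Plaa*, a ubiquitin-binding protein, and *Ift74*, a protein of transport in cilia, lie next to each other, and *Lrrc19* lies within the span of *Ift74* (94635721 to 94650144 in 94603266 to 94693233). *Ift74* had a log2 signal of 6.99 and 6.48 on the Junf/f arrays and 6.60 and 6.54 on the Jun delta mu arrays. Junf/f replicate 1 alone was high. Its difference of -0.17 was 0.09 without that array and -0.42, past the threshold, without Junf/f replicate 2. *Lrrc19*, a membrane protein of the leucine-rich repeat kind, was at 4.63 and 5.03 against 5.12 and 5.04, where Junf/f replicate 1 alone was low. Its difference of 0.25 was 0.05 without that array and 0.45, past the threshold, without Junf/f replicate 2. The second probe set of *Lrrc19* was on the other side of 0, at -0.05. *Caap1*, an inhibitor of apoptosis, was at 6.59 and 6.15 against 6.48 and 6.15. In each group replicate 1 was the higher, and the difference of -0.05 ran from -0.27 to 0.17 as single arrays were left out. *Plaa* was at 9.54 and 9.41 against 9.60 and 9.52 by its brightest probe set, a difference of 0.08. A dimmer probe set of *Plaa* was at 6.60 and 6.44 against 6.29 and 6.03, with both Jun delta mu hearts lower. At -0.36 it had an unadjusted p under 0.05 and lay just under 1.3-fold, and it passed at -0.49 without Jun delta mu replicate 1 and at -0.44 without Junf/f replicate 2.

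*Tek*, also called Tie2, is the endothelial receptor for angiopoietins and lies just before *Mysm1*, from 94739086 to 94874976. Its probe set was at 9.82 and 9.76 on the Junf/f arrays and 9.63 and 9.52 on the Jun delta mu arrays. Both Jun delta mu hearts were below both Junf/f hearts. The difference was -0.21 (standard error 0.09, 95% interval -0.45 to 0.02; limma, adjusted p = 0.896), which is under 1.3-fold, and it stayed between -0.27 and -0.16 as single arrays were left out. None of 8 endothelial markers passed, 7 of 8 were below 0 and their mean log2 signal was 9.64 and 9.66 on the Junf/f arrays against 9.53 and 9.54 on the Jun delta mu arrays. *Tie1*, the sister receptor of *Tek* on another part of the chromosome, was at 8.44 and 8.36 against 8.15 and 8.17, a difference of -0.24. The part of endothelial content in the value of *Tek* was not tested, and in whole hearts fewer cells of a type and less RNA per cell cannot be told apart. Of 8 genes of angiopoietin and Tie signalling outside the member list, *Angpt4*, a ligand, passed as higher and none as lower. It was at 4.57 and 4.85 against 5.04 and 5.18, and its difference of 0.40 was 0.26 without Junf/f replicate 1, 0.47 without Jun delta mu replicate 1 and 0.33 without Jun delta mu replicate 2, none of which passed. The ligands *Angpt1* and *Angpt2* differed by 0.34 and -0.04 and did not pass. *Angpt1* passed without Junf/f replicate 1, at 0.61, and was at 0.07 without Junf/f replicate 2.

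The cell cycle inhibitors were dim in these hearts. *Cdkn2a* encodes the tumour suppressors INK4a and ARF and was at 3.70 and 3.87 on the Junf/f arrays and 4.09 and 3.95 on the Jun delta mu arrays. The Jun delta mu hearts were both higher, and the difference of 0.24 (95% interval -0.03 to 0.51) did not pass and stayed above 0 as single arrays were left out, from 0.15 to 0.32. *Cdkn2b*, the inhibitor INK4b next to it, was at 4.82 and 5.05 against 4.89 and 4.84, with overlapping groups. The transcription factor *Dmrta1* was at 3.12 and 3.10 against 2.86 and 3.01. Its difference of -0.17, with Jun delta mu hearts lower, was within the dimmest signals of the array and did not pass. *Mtap*, an enzyme of methionine salvage, was bright and differed by -0.03, with a 95% interval of -0.26 to 0.19. *Mllt3*, a subunit of the super elongation complex, differed by -0.12, or 0.05 without Junf/f replicate 1. Of 9 genes of cyclin D and Rb signalling measured outside the list, none passed and the median was 0.01.

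The *Cyp2j* genes encode enzymes that make epoxides of arachidonic acid. *Cyp2j6* was the brightest, at 6.72 and 6.69 on the Junf/f arrays and 6.78 and 6.81 on the Jun delta mu arrays. Its groups did not overlap, and the difference was 0.09, with a 95% interval of -0.12 to 0.31 that lay within 1.3-fold. *Cyp2j9* differed by -0.02 and *Cyp2j5* by -0.13, both below the median signal. The direction of both depended on the array left out, for *Cyp2j9* from -0.14 to 0.11 and for *Cyp2j5* from -0.263 to 0.004. The second probe set of *Cyp2j6* ran the other way from the brightest, at -0.17, and did not pass. Of 7 other genes of this pathway none passed (median 0.01), and *Ephx2*, the epoxide hydrolase, differed by -0.02.

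Leptin and cytokine receptor genes lay farther out, past 6 Mb after *Jun*. The brightest probe set of *Lepr* was at 6.23 and 6.05 on the Junf/f arrays and at 6.42 and 5.72 on the Jun delta mu arrays. The Jun delta mu hearts stood on either side of the Junf/f hearts, so that its difference of -0.07 was 0.29 without Jun delta mu replicate 2 and -0.42, past the threshold, without Jun delta mu replicate 1. The 4 atrial markers were highest on Jun delta mu replicate 2, with a mean log2 signal of 9.76 against 6.57 to 6.998 on the other arrays, and the part of atrial tissue in the low *Lepr* of that array was not tested. *Leprot*, whose product limits the leptin receptor at the cell surface, differed by -0.03 (95% interval -0.26 to 0.21), and from -0.09 to 0.04 as single arrays were left out. *Jak1* was at 10.68 and 10.67 against 10.65 and 10.84 and differed by 0.07, with a 95% interval of -0.18 to 0.33. Both intervals lay within 1.3-fold. Of 14 other genes of JAK and leptin signalling none passed, with a median of 0.01, and *Socs1*, a feedback inhibitor, reached the threshold without Junf/f replicate 2 alone, at 0.54.

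**Figure D4:**
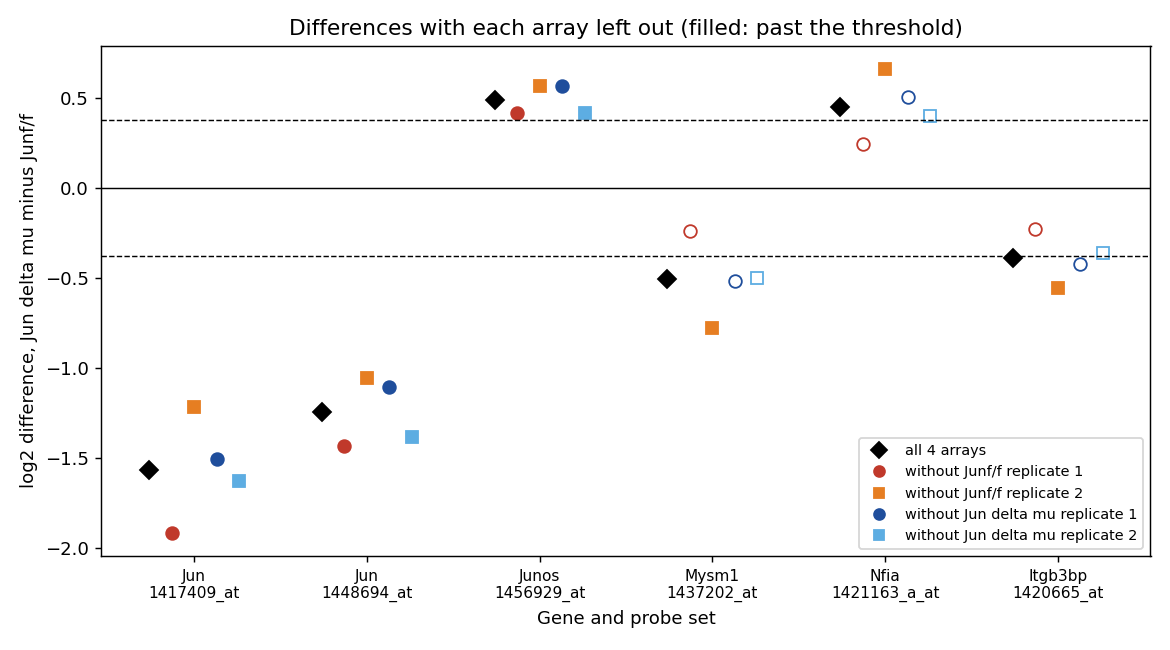
Difference in log2 RMA signal on all 4 arrays and with each array left out (filled symbols passed the threshold, dashed lines 1.3-fold). Jun and Junos passed whichever array was left out, whereas Mysm1, Nfia and Itgb3bp passed without Junf/f replicate 2 and lost the call without any other single array.

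Of the 6 members in metabolism, glycosylation, mitochondria and autophagy none passed. *Oma1*, the protease that cleaves OPA1 under mitochondrial stress, was at 9.34 and 9.43 on the Junf/f arrays and 9.37 and 9.29 on the Jun delta mu arrays. Its groups overlapped, and the difference of -0.06 had a 95% interval of -0.29 to 0.18. *Fggy*, a carbohydrate kinase and the first member after *Jun*, differed by 0.03 (95% interval -0.21 to 0.28) and *Ak4*, a mitochondrial adenylate kinase, by 0.07 (95% interval -0.25 to 0.39). Both changed direction with the array left out, *Fggy* from -0.04 to 0.10 and *Ak4* from -0.07 to 0.21. *Slc35d1*, a nucleotide sugar transporter, differed by -0.05, and from -0.11 to 0.01 as single arrays were left out. *Alg6*, a glucosyltransferase of protein glycosylation, was at 6.79 and 6.25 against 6.39 and 6.19. Junf/f replicate 1 alone was high, and the difference of -0.23 was 0.04 without it and -0.50, past the threshold, without Junf/f replicate 2. The second probe set of *Alg6* ran the other way, at 0.17. Of 9 partners of OMA1 in mitochondrial quality control and 3 other adenylate kinases, none passed (medians 0.04 and -0.06).

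Among the ubiquitin genes beside *Mysm1*, *Usp1*, which removes ubiquitin from FANCD2 and PCNA, differed by -0.11, with overlapping groups. Of its 4 partners none passed (median -0.01). Of the members grouped under transcription and RNA binding none passed by the brightest probe set, with *Mier1* at -0.02, *Tusc1* at -0.06, *Foxd3* at 0.04 and *Elavl2* at -0.08. The direction of *Mier1* (-0.08 to 0.03), *Tusc1* (-0.17 to 0.05) and *Elavl2* (-0.26 to 0.11) depended on the array left out. *Dab1*, an adaptor of Reelin signalling at the far end of the region, was at 6.18 and 6.28 against 6.42 and 6.48 by its brightest probe set. The Jun delta mu hearts were both higher, and the difference of 0.22 (95% interval -0.01 to 0.45) did not pass and stayed between 0.17 and 0.27 as single arrays were left out. Of the members in membrane traffic, cytoskeleton and cilium none of 8 passed, the largest increase there being *Lrrc19* and the next *Kank4*, at 3.72 and 3.96 against 3.94 and 4.01. The groups of *Kank4* overlapped, with a difference of 0.13. *Hook1*, *Cachd1*, *Efcab7*, *Dnajc6* and *Sgip1* of this group lay between -0.14 and 0.04. Leaving out an array turned the direction of *Efcab7* (-0.15 to 0.10), *Dnajc6* (-0.04 to 0.09) and *Sgip1* (-0.03 to 0.10). *Ror1*, a receptor of Wnt5a, differed by -0.05, and from -0.21 to 0.12 as single arrays were left out. *Tm2d1* differed by -0.12. Of 9 other phosphodiesterases of the heart none passed by the brightest probe set (median -0.03). A dim probe set of *Pde4d*, at 4.57 and 3.83 against 3.14 and 3.10, was lower past the threshold on all 4 arrays and without any single array, while the brightest one of that gene differed by 0.03.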

How the data were processed

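RNA of 4 hearts was measured on 4 arrays. The authors deposited log2 values of RMA, which subtracts background, normalizes across arrays and summarizes the probes of a probe set. Per the labels this was done with the R package oligo, with versions not given in the sources used here. After removal of 64 AFFX controls, 45037 of 45101 probe sets entered 1 limma 3.58.1 model (lmFit, then eBayes; R 4.3.3) with genotype as its term, and two-sided p-values were adjusted over all of them by Benjamini-Hochberg. The methods' Student t-test was an alternative. Names came from the platform annotation (34945 probe sets with a single gene) and positions from a RefSeq table of GRCm38.p6 (34741 probe sets). No detection calls were used, and 53 of the 105 member probe sets lay below the median signal of the array. No batch was named in the sources used here, and p-values measure only the spread between these samples. In limma the spread of each probe set is drawn toward that of all probe sets, whereas the t-test uses its own spread alone. For the passing probe set of *Mysm1* the unadjusted p was 0.036 by limma and 0.200 by the t-test.

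The members and lists were chosen with earlier results of these data known. Members described on every array are those with a probe set past the threshold, the 6 nearest to *Jun*, the 5 largest increases and 5 largest decreases by the brightest probe set, and *Jun*. Array values of other genes were added after they were seen. The fit was also run on simulated arrays with independent noise and planted changes larger than the difference of any member. That run does not measure how firm the calls of the members are. Figures were drawn with matplotlib 3.10.9.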

Additional observations from a re-analysis of the deposited data

How the results depend on the processing

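The count of member probe sets past the threshold, 3, was 0 by the methods' t-test with and without Benjamini-Hochberg adjustment. The count by the brightest probe set, 1, was 0 in both of these and as the median over probe sets, and 3 when any probe set of a gene counted. Leaving out 1 array each gave 0 to 11 probe sets (1.64% to 7.66% of all probe sets) and 0 to 4 genes. The lowest member counts came without Junf/f replicate 1 and the highest without Junf/f replicate 2. The lowest share of all probe sets came from another fit, without Jun delta mu replicate 2. With replicate number as a block the counts were 4 (1.52% of all probe sets) and 1. The sources used here do not say whether same-numbered arrays belong together. The deviations of same-numbered arrays from their group means correlated at 0.03 over all probe sets. With 2 arrays per group this cannot settle whether hearts were paired. A trended robust prior, quantile normalization and median centring gave 3 and 1 (1.58%, 1.56% and 1.55% of all), and array weights 4 and 1 (1.64%). Removal of the 40% lowest signals gave 2 and 1 (1.71%), since it drops the dim probe set of *Itgb3bp*. Specific probe sets alone gave 2, since that of *Nfia* is not of this type. The cause of the other shifts was not tested. Of 200 alternative values of 17 named probe sets, 179 kept direction and call, 12 lost the call, 4 gained it and 5 turned direction. These totals do not measure how firm the calls were. All 12 losses fell on the passing probe sets of *Mysm1*, *Nfia* and *Itgb3bp*. Apart from these, only *Jun* and *Junos* had a call to lose, and they kept it. The values also include log2 ratios of unlogged group means, which keep the p-value of the main fit. The 5 turns of direction came from leaving out 1 array. *Ift74* ranged from -0.421 to 0.087, *Caap1* from -0.272 to 0.167, *Pde4b* from -0.089 to 0.472 and *Alg6* from -0.500 to 0.037. A lone array in a group borrows its spread from the pair that remains.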
